A study of Mus musculus with 32 samples.

Results

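The collagen genes of mouse lung are described here in Bmal1 knockout (KO) and wild type (WT) animals. They were chosen by name alone, as the rows of the gene count table whose symbol is Col, a number, a and a number, and 44 of the 41687 rows matched. The labels describe adult C57b/6 and Bmal1 knock-out mice between 8 and 18 weeks old, bred in-house and all given as female, whose lungs were snap-frozen. How the knockout was made is not given in the sources used here. RNA was sequenced after up to 3 library preparations. RiboZero libraries followed pull-down of ribosomal RNA (6 WT and 6 KO mice) and PolyA libraries followed selection of polyadenylated RNA (the same 6 and 6). NoSelect libraries had neither step and were made for mice 3 to 6 of each genotype (4 WT and 4 KO), each pooled from 6 preparations of 1 mouse, which gave 32 libraries in all. Genotypes were set against each other separately in the 3 preparations, and preparations were set against each other over both genotypes.

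Collagens are secreted or membrane-bound proteins built from 3 chains wound into a triple helix, and they form most of the scaffold of the lung. Fibrillar collagens (types I, III and V) make tensile fibres around airways, vessels and in the alveolar septa, while type IV collagens make the sheet-like network of basement membranes between alveolar epithelium and capillaries. Type VI makes beaded filaments, the FACIT collagens (types IX, XII, XIV and relatives) sit on the surface of fibrils, and others are membrane-bound or carry heparan or chondroitin sulfate. Bmal1, whose gene has the symbol Arntl, is a circadian clock transcription factor that pairs with CLOCK on E-box sequences.

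Total counts ran from 11638594 to 25801237 in RiboZero, from 29924325 to 41548830 in PolyA and from 74979802 to 115059756 in NoSelect libraries. Values per library are CPM, counts scaled to a common library size by TMM over all 32 libraries. Arntl, the targeted gene, lay between 27.0 and 33.9 CPM in RiboZero WT and between 15.2 and 18.7 CPM in KO libraries, and NoSelect libraries were also separate (27.5 to 29.4 against 16.6 to 18.7 CPM). In PolyA the groups overlapped (19.6 to 23.6 CPM in WT and 17.0 to 20.9 CPM in KO), with a log2 fold change of -0.27 and an adjusted p of 0.0262 (edgeR). KO mouse 6, labelled female, had 2, 3 and 16 counts of the female-specific RNA Xist in its RiboZero, PolyA and NoSelect libraries, where every other library had at least 13590 counts. It had 2195, 2578 and 2967 counts of the Y-linked gene Ddx3y, which was at 0 in every other library. Its NoSelect library is labelled as liver, yet it held 5329 CPM of the surfactant gene Sftpc (3608 to 4939 CPM in the other NoSelect libraries) and 0.391 CPM of the liver gene Alb (0.0777 to 0.978 CPM in the others). Counts of collagen genes called between genotypes and between preparations are therefore given with and without this mouse. Other counts include it.

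The chains of types I, III, IV and VI were the most abundant collagen transcripts in WT lung. Levels of different genes were compared as CPM per kilobase (kb) of the longest protein-coding transcript. In NoSelect WT libraries (n = 4) Col4a1 led with 147 ± 16.8 CPM per kb (mean ± SD), followed by Col4a2 with 119 ± 11.97 and Col3a1 with 106 ± 13.8 CPM per kb. These encode the major basement membrane chains and the type III fibril chain, and their ranges overlapped from each to the next. After a gap without overlap came Col1a2 with 76.4 ± 7.46, Col1a1 with 64.1 ± 8.96 and Col6a1 with 59.6 ± 3.82 CPM per kb, which overlapped in that order. Col6a2 (42.1 ± 2.13), Col4a3 (38.1 ± 1.08) and Col6a3 (28.2 ± 1.747 CPM per kb) were each separate from the next gene in the order.

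In RiboZero WT libraries (n = 6) the order began with Col4a1 at 152 ± 22.9, Col3a1 at 123 ± 13.5 and Col4a2 at 109 ± 14.2 CPM per kb. Col1a1 ranked eighth there, at 34.0 ± 4.46 CPM per kb, and its range overlapped those of Col6a2 and Col6a3 beside it. In PolyA WT libraries (n = 6) the first 5 genes each overlapped the next, from Col3a1 at 78.3 ± 11.3, Col4a1 at 73.3 ± 16.6 and Col4a2 at 64.1 ± 13.4 to Col1a2 at 57.8 ± 5.68 and Col6a1 at 50.6 ± 5.18 CPM per kb. Col1a1 was sixth in PolyA at 34.9 ± 4.96 CPM per kb. The summed level of all 44 collagen rows in WT libraries was 4984 ± 311 CPM in RiboZero, 2985 ± 326 CPM in PolyA and 5086 ± 362 CPM in NoSelect.

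**Figure D1:**
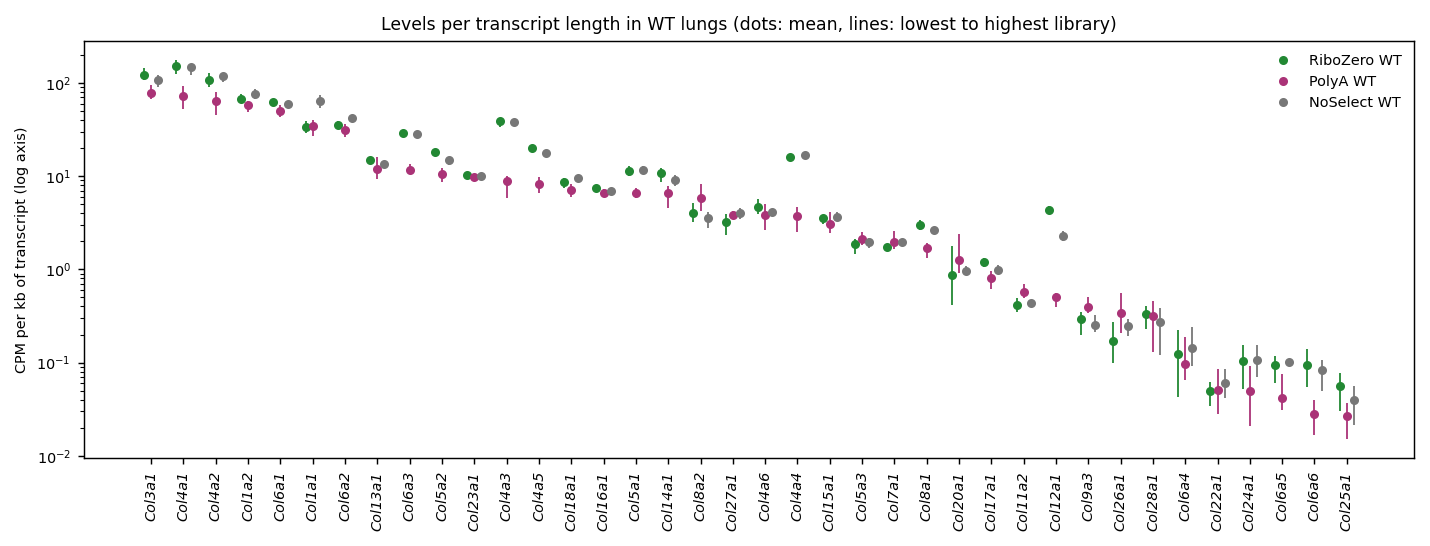
Mean level of each tested collagen gene in WT lung, as CPM per kb of transcript on a log axis, with lines from the lowest to the highest library of each preparation (6 RiboZero, 6 PolyA, 4 NoSelect). The order is that of PolyA; Col4a3, Col4a4 and Col12a1 sit well below their RiboZero and NoSelect levels in PolyA.

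Several collagen transcripts typical of cartilage were near or at the limit of detection, and others were not. Col2a1, the type II chain of cartilage, reached at most 7 counts in any library, Col9a2 7, Col11a1 10, Col9a1 1 and Col10a1, of hypertrophic cartilage, 1. Together with Col19a1, with at most 15 counts, these 6 genes did not pass the filter on low counts in any comparison of KO with WT and were not tested. The related type IX and XI chains Col9a3 and Col11a2 were tested in every preparation, at medians of 0.734 to 1.09 CPM and 2.42 to 3.46 CPM in WT, and were not called between genotypes. Col22a1 and Col25a1 passed it in PolyA and NoSelect but not in RiboZero, so 36 members were tested in RiboZero and 38 in each of the other preparations. The cartilage marker list (Acan, Matn1, Matn3, Hapln1, Cnmd, Comp, Snorc) summed to between 0.157 and 1.15 CPM over all libraries, with Acan, Matn1, Cnmd and Snorc at 0 in every NoSelect library.

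In the knockout lungs, 3 of the 6 type IV chains and Col23a1 were higher in RiboZero and NoSelect libraries, and several fibril-associated and minor collagens were lower in RiboZero or PolyA libraries. Col4a3, Col4a4, Col4a5 and Col23a1 rose in RiboZero and in NoSelect, and Col1a1 and Col5a1 rose in NoSelect. Col12a1, Col14a1, Col15a1, Col27a1 and Col28a1 fell in RiboZero and in PolyA, Col17a1 fell in RiboZero and Col16a1 fell in PolyA. Genes were called by edgeR's quasi-likelihood test where the p, adjusted over all tested rows, was under 0.05. In RiboZero 10 of 36 tested members were called (4 higher, 6 lower), against 3.46% of all rows. In PolyA 6 of 38 were called, all lower, against 4.03% of all rows called and 2.41% called lower. In NoSelect 6 of 38 were called, all higher, against 2.17% of all rows called and 1.19% called higher. Without KO mouse 6 the counts were 9 in RiboZero (3 higher, 6 lower), 5 in PolyA (all lower) and 8 in NoSelect (7 higher, 1 lower).

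The 3 preparations share mice, so they are not independent experiments, and the values are given side by side. In all, 13 members were called in at least 1 preparation, 9 of them in a pair of preparations, 4 in 1 and 0 in all 3. The median log2 fold change of the tested members was 0.05 in RiboZero, -0.01 in PolyA and 0.09 in NoSelect, and the medians of all tested rows lay between -0.0029 and 0.0005. An unadjusted p under 0.05 was found for 17, 11 and 18 members in RiboZero, PolyA and NoSelect, and for 2739 of 16710, 3098 of 17211 and 2696 of 17124 rows in all. WT and KO libraries did not overlap for 5 members in RiboZero (2.89% of all rows), 2 in PolyA (3.32%) and 14 in NoSelect (9.48%, with 4 libraries a group). In lung tissue, fewer cells of a type and less RNA per cell cannot be told apart.

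**Figure D2:**
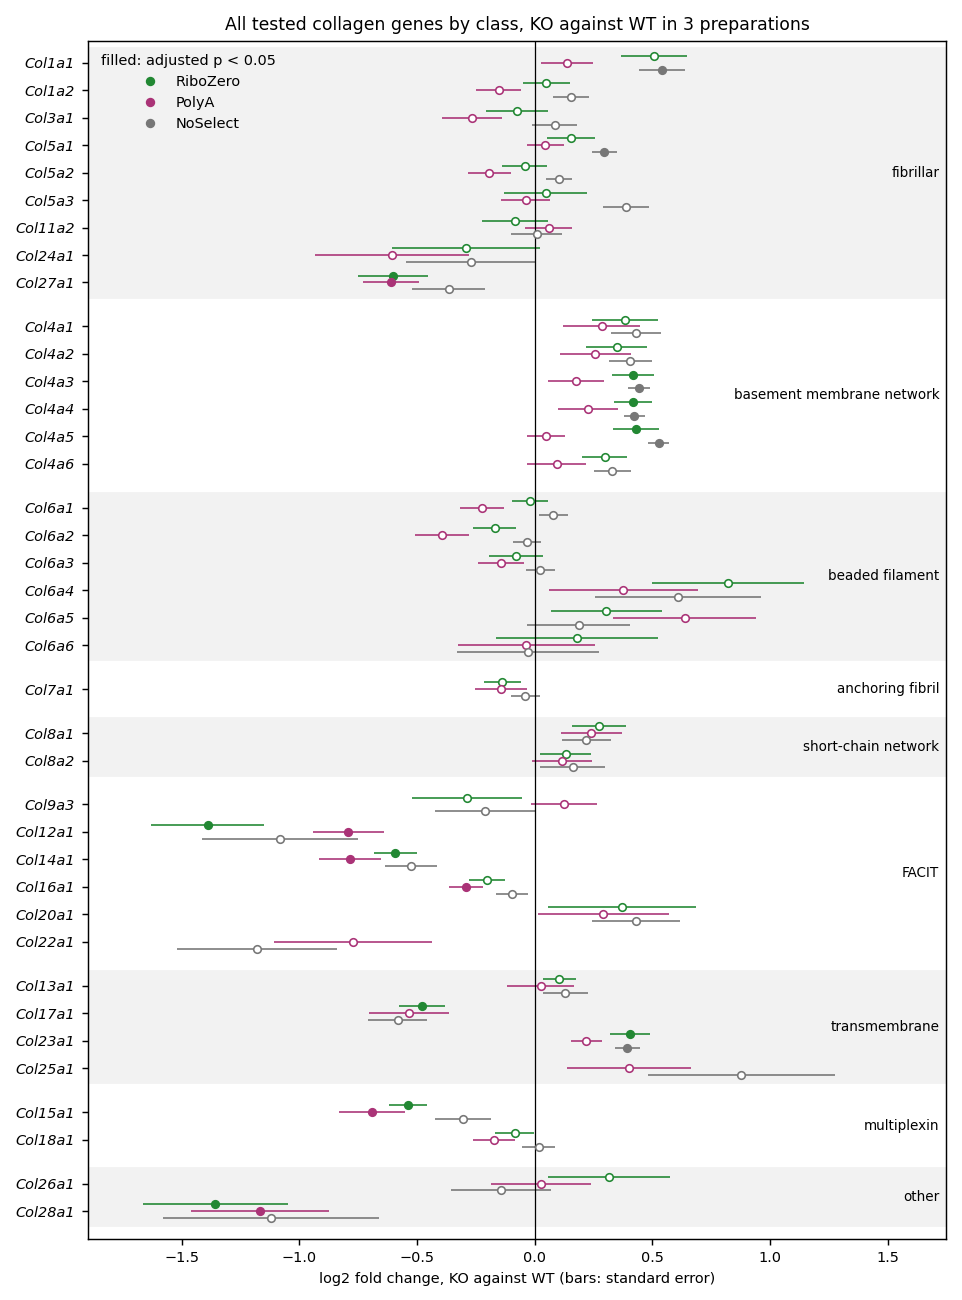
log2 fold change of KO against WT for every tested collagen gene, grouped by class, in RiboZero, PolyA and NoSelect libraries, with bars of 1 standard error and filled points for an adjusted p under 0.05. All 6 type IV chains lie to the right of 0 in each preparation, and the filled points to the left belong to Col12a1, Col14a1, Col15a1, Col16a1, Col17a1, Col27a1 and Col28a1.

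Of the 6 type IV genes, the basement membrane chains, 3 rose in RiboZero and 3 in NoSelect and 0 in PolyA, and all 6 had a positive log2 fold change in each preparation, with medians of 0.40, 0.43 and 0.20. Col4a3, Col4a4 and Col4a5 encode the 3 chains of the network found in lung alveolar and kidney glomerular basement membranes, the chains altered in Alport syndrome. They lie in pairs that start back to back. Col4a4 (minus strand) and Col4a3 (plus strand) start at 82586849 and 82586921 on chromosome 1 of GRCm38, with 71 bases between them, while Col4a6 and Col4a5 start 1308 bases apart on chromosome X. The starts of Col4a1 and Col4a2, on chromosome 8, overlap. The 71 bases that separate Col4a4 from Col4a3, and the bases just upstream of Col4a5, are shown because these genes were called together. They are RefSeq sequence of build GRCm38.p6, 5′ to 3′ on the strand of the named gene, at chr1:82586850-82586920 (minus) and chrX:141475169-141475384 (plus), with a CCAAT box in capitals.
Col4a4: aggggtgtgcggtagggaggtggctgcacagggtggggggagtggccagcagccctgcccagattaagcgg
Col4a5: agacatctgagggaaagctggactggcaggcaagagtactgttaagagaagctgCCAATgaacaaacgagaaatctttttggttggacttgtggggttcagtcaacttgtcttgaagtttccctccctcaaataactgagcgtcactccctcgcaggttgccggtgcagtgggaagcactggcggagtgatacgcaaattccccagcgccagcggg

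Col4a3 in NoSelect libraries was at 323, 339, 318 and 323 CPM in WT mice 3 to 6 and at 477, 417, 427 and 457 CPM in KO mice 3 to 6. The groups did not overlap, and the log2 fold change was 0.44 ± 0.0485 (SE), adjusted p = 0.00378 (edgeR). In RiboZero the lowest, median and highest libraries were 285, 338 and 364 CPM in WT and 334, 465 and 499 CPM in KO. KO mouse 1 was the lowest KO library and fell within the WT range, while the other 5 KO libraries, from 437 CPM, lay above every WT library. The RiboZero log2 fold change was 0.42 ± 0.0892 (adjusted p = 0.0209, edgeR), and the call was lost without WT mouse 5 (adjusted p = 0.0520) or KO mouse 2 (adjusted p = 0.0515). In PolyA the values overlapped (50.2 to 86.3 CPM in WT and 73.3 to 103 CPM in KO) and the log2 fold change was 0.18, adjusted p = 0.473 (edgeR). There KO mouse 1 was the highest KO library, not the lowest.

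Col4a4, which pairs with Col4a3, was at 164, 176, 168 and 169 CPM in NoSelect WT and at 243, 216, 222 and 229.5 CPM in KO libraries. All 4 KO libraries lay above all WT libraries (log2 fold change 0.42 ± 0.0434 SE, adjusted p = 0.00250, edgeR). In RiboZero it ran from 158 over a median of 161 to 167 CPM in WT and from 161 over 227 to 249 CPM in KO, again with KO mouse 1 lowest. The RiboZero log2 fold change was 0.42 ± 0.0806 (adjusted p = 0.0127, edgeR), and the call was kept without any 1 of the 12 libraries.

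Col4a5, the X-linked chain, was at 122, 111, 114 and 111 CPM in NoSelect WT and at 164, 166, 158 and 174 CPM in KO libraries, with no overlap (log2 fold change 0.53 ± 0.0447 SE, adjusted p = 0.000938, edgeR). In RiboZero WT libraries ran from 126 over a median of 132 to 139 CPM and KO libraries from 123 in mouse 1 over 186 to 207 CPM. The RiboZero log2 fold change was 0.43 ± 0.0991, with an adjusted p of 0.0310 (edgeR) that passed the threshold only narrowly: leaving out any of the libraries other than KO mouse 1, 11 of 12 in turn, gave adjusted p from 0.0528 to 0.0774, and 0.000143 came without KO mouse 1. In PolyA, WT and KO libraries covered nearly the same range (43.1 to 63.4 and 52.8 to 62.6 CPM), with a log2 fold change of 0.05.

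Col4a1 and Col4a2, the chains of all basement membranes, were not called in any preparation. Col4a1 in NoSelect was at 810.2, 1045, 999 and 1041 CPM in WT and at 1293, 1139, 1299 and 1528 CPM in KO libraries, and Col4a2 was at 661, 831, 771 and 818 against 1016, 908, 1015 and 1156 CPM. Neither pair of groups overlapped, with log2 fold changes of 0.43 (adjusted p = 0.0882) and 0.41 (adjusted p = 0.0618, edgeR). In RiboZero the log2 fold changes were 0.38 and 0.35 with overlapping groups, and both genes were called without KO mouse 1 (adjusted p = 0.0428 and 0.0343, edgeR). Col4a6 had log2 fold changes of 0.30 in RiboZero, 0.09 in PolyA and 0.33 in NoSelect and also passed the threshold in RiboZero only without KO mouse 1 (adjusted p = 0.0443). KO mouse 1 had the lowest RiboZero value of the KO group for 23 of the 36 tested collagen genes. Its PolyA library was the lowest of the KO group for 14 of 38 tested genes and the highest for 4. Summed over the 6 genes, basement membrane chains came to 2369 ± 259 CPM in WT and 3095 ± 559 CPM in KO in RiboZero (SD, n = 6), to 1092 ± 198 and 1329 ± 239 CPM in PolyA, and to 2381 ± 188 and 3210.2 ± 287 CPM in NoSelect (n = 4).

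Among the fibrillar collagens, of which 9 were tested, Col1a1 and Col5a1 rose in NoSelect, and Col27a1 fell in RiboZero and PolyA. Col1a1, the chain present in 2 copies in each type I collagen molecule, was at 319.8, 358, 401 and 442 CPM in NoSelect WT and at 518, 559.8, 598 and 541 CPM in KO libraries. Every KO library lay above every WT library (log2 fold change 0.54 ± 0.0980 SE, adjusted p = 0.0299, edgeR), and the call was lost without WT mouse 4 or 5 or KO mouse 4 or 5 (adjusted p from 0.0764 to 0.103). In RiboZero WT libraries ran from 174 over a median of 199 to 234 CPM and KO libraries from 178 in mouse 1 over 305 to 356 CPM. That gave a log2 fold change of 0.51, adjusted p = 0.0691, and 0.61, adjusted p = 0.00433, without KO mouse 1 (edgeR). In PolyA the groups overlapped widely, with medians of 215 and 224 CPM and a log2 fold change of 0.14.

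Of the partners of Col1a1 in fibrils, Col1a2 and Col3a1 were not called and Col5a1 rose in NoSelect. Col1a2, the second type I chain, was at 363, 392, 423 and 456 CPM in NoSelect WT and 425, 476, 479 and 441 CPM in KO libraries, which overlapped. In RiboZero its log2 fold change was 0.05, in PolyA -0.15 and in NoSelect 0.15. Col3a1, the type III chain, had -0.07, -0.27 and 0.08, and neither gene was called. Col5a1, a chain of the type V collagen that nucleates fibrils, was at 95.8, 92.3, 107 and 101 CPM in NoSelect WT and at 127, 125, 116 and 119 CPM in KO libraries. Its groups were separate (log2 fold change 0.30 ± 0.0525 SE, adjusted p = 0.0272, edgeR), but the call was lost without WT mouse 3, 4 or 6 or KO mouse 3, 4 or 5 (adjusted p from 0.0591 to 0.0824). Col5a1 had log2 fold changes of 0.15 in RiboZero and 0.04 in PolyA.

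Col27a1, a fibrillar chain known mainly from cartilage, fell in RiboZero and PolyA. PolyA libraries ran from 26.2 over a median of 29.6 to 32.3 CPM in WT and from 13.6 over 20.1 to 23.4 CPM in KO, with no overlap and with KO mouse 6 lowest. The log2 fold change there was -0.61 ± 0.121 (adjusted p = 0.0133, edgeR) and -0.51 without KO mouse 6. In RiboZero the groups overlapped (17.6 to 30.1 and 10.6 to 19.4 CPM). The log2 fold change there was -0.60, adjusted p = 0.0443, and the call was lost without WT mouse 1, 2, 3, 5 or 6 or KO mouse 1, 2 or 4 (adjusted p from 0.0678 to 0.100). In NoSelect it was -0.36, adjusted p = 0.302, and KO mouse 6, at 16.6 CPM, was again lowest.

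The ratio of type I chains within a library separated the genotypes in every preparation. Ratios were taken per kb within each library for 7 pairs of chains in 3 preparations, 21 two-sided exact permutation tests in all, and the pairs were chosen with the fold changes known. The ratio of Col1a2 to Col1a1 lay between 1.88 and 2.11 in RiboZero WT and between 1.33 and 1.69 in RiboZero KO libraries. It lay between 1.56 and 1.80 in PolyA WT and between 1.337 and 1.398 in PolyA KO libraries. In NoSelect it lay between 1.14 and 1.26 in WT and between 0.887 and 0.943 in KO libraries. The groups were separate each time, with log2 differences of -0.45, -0.30 and -0.39. The exact permutation p was 0.00216 in RiboZero and in PolyA (Benjamini-Hochberg adjusted 0.0152) and 0.0286 in NoSelect (adjusted 0.0667), in each case the smallest that the group sizes allow.

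The ratio of Col3a1 to Col1a1 differed in the same direction, but it has the same denominator, Col1a1, and is not independent of the first. It had a mean of 3.65 in WT and 2.43 in KO in RiboZero, 2.26 and 1.69 in PolyA, and 1.66 and 1.21 in NoSelect, and the groups overlapped in PolyA only. The exact permutation p was 0.00216, 0.00649 and 0.0286 (adjusted 0.0152, 0.0341 and 0.0667). Of the chains that start back to back, Col4a1 to Col4a2 had an exact permutation p between 0.193 and 0.463 and Col4a3 to Col4a4 between 0.286 and 0.937, with overlapping groups. The ratio of Col4a5 to Col4a6 lay between 3.99 and 4.55 in NoSelect WT and between 4.57 and 5.25 in KO libraries. These did not overlap (log2 difference 0.20, exact permutation p = 0.0286, the smallest possible, adjusted 0.0667), while the RiboZero and PolyA ratios overlapped (exact permutation p = 0.180 and 0.673). Col5a1 to Col5a2 differed by 0.20, 0.24 and 0.19 on the log2 scale with adjusted p of 0.0667, 0.0667 and 0.120 by exact permutation tests.

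**Figure D3:**
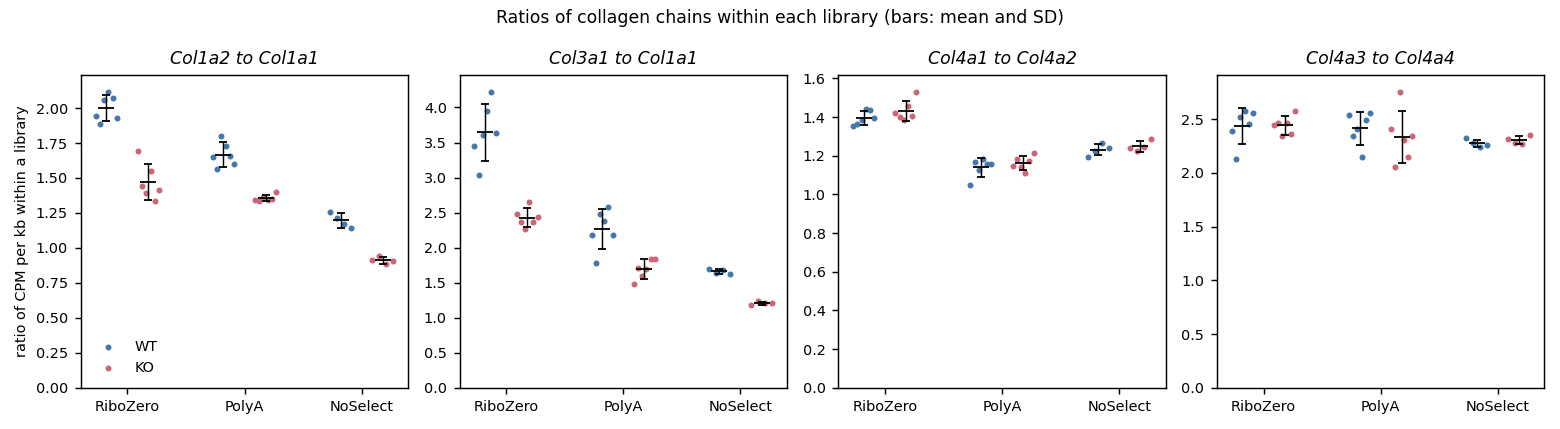
Ratio of collagen chains within each library, per kb of transcript, in WT and KO lungs of each preparation; each dot is a library and bars show the mean and SD. Col1a2 to Col1a1 is lower in every KO library than in any WT library of the same preparation, while Col4a1 to Col4a2 and Col4a3 to Col4a4 overlap.

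FACIT collagens, which bind the surface of fibrils, were lower in the knockouts where they were called. Of the 9 members, 5 were tested in RiboZero and 6 in the other preparations, and 2 fell in RiboZero, 3 in PolyA and 0 in NoSelect. Col12a1, which links fibrils to other matrix proteins, was at 46.6, 44.9, 54.4, 53.0, 54.4 and 45.7 CPM in RiboZero WT mice 1 to 6. The KO libraries were at 15.4, 11.97, 16.2, 16.7 and 14.5 CPM in mice 1 to 5 and at 39.4 CPM in mouse 6. Groups did not overlap, and KO mouse 6 stood apart from the other KO libraries (log2 fold change -1.39 ± 0.241 SE, adjusted p = 0.00676, edgeR; -1.74 without this mouse). KO mouse 6 was also the highest KO library in PolyA (4.87 CPM, others 2.49 to 3.76, WT 4.52 to 6.37) and in NoSelect, where KO mice 3 to 6 were at 12.03, 7.72, 6.91 and 22.4 CPM and WT mice between 23.4 and 29.4 CPM. The PolyA log2 fold change was -0.79 (adjusted p = 0.0115), and NoSelect gave -1.08 (adjusted p = 0.161), or -1.56 (adjusted p = 0.00948) without KO mouse 6 (edgeR).

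Col14a1, a FACIT of interstitial fibrils, ran from 55.7 over a median of 72.8 to 79.1 CPM in RiboZero WT and from 41.9 over 44.9 to 54.7 CPM in KO libraries. The groups were separate (log2 fold change -0.59 ± 0.0906 SE, adjusted p = 0.00323, edgeR). In PolyA WT libraries ran from 29.4 to 50.3 CPM and KO libraries from 22.05 to 30.3 CPM, with a log2 fold change of -0.78 ± 0.133 and an adjusted p of 0.00547. In NoSelect all 4 KO libraries (37.7 to 47.6 CPM) lay below all WT libraries (50.6 to 66.9 CPM), with a log2 fold change of -0.53 and an adjusted p of 0.0504. Col16a1 fell in PolyA by 0.29 on the log2 scale (adjusted p = 0.0371, edgeR), from a median of 33.0 to 28.3 CPM with overlap. That call was lost without any of WT mice 1, 3, 4, 5 and 6 and KO mice 1, 2, 3, 4 and 6 (adjusted p from 0.0512 to 0.0982). With mice 3 to 6 alone, Col12a1 and Col14a1 kept their direction in RiboZero and PolyA without passing the threshold (adjusted p from 0.0593 to 0.0799).

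Col15a1 and Col28a1 also fell in RiboZero and PolyA, and Col17a1 in RiboZero. Col15a1 encodes a proteoglycan collagen of vascular basement membrane zones, whose relative Col18a1 gives rise to endostatin. It ran from 15.7 over a median of 19.1 to 19.98 CPM in RiboZero WT and from 11.0 over 12.2 to 14.5 CPM in KO libraries, without overlap (log2 fold change -0.54 ± 0.0810 SE, adjusted p = 0.00275, edgeR). In PolyA the ranges of 12.6 to 21.1 and 8.36 to 11.9 CPM were also separate (log2 fold change -0.69 ± 0.140, adjusted p = 0.0152). In NoSelect KO mouse 4, at 18.4 CPM, lay within the WT range of 17.4 to 21.1 CPM, and the log2 fold change was -0.31, adjusted p = 0.262. With mice 3 to 6 alone Col15a1 missed the threshold in RiboZero (adjusted p = 0.0678) and PolyA (adjusted p = 0.0815). Col18a1 had log2 fold changes of -0.08, -0.17 and 0.02 and was not called.

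Col17a1, the hemidesmosome collagen of basal epithelial cells, was low: 5.93 to 7.37 CPM in RiboZero WT and 3.91 to 5.50 CPM in KO libraries, without overlap (log2 fold change -0.48 ± 0.0980 SE, adjusted p = 0.0168, edgeR). With mice 3 to 6 alone the adjusted p was 0.124. Its log2 fold change was -0.53 in PolyA (adjusted p = 0.109) and -0.58 in NoSelect (adjusted p = 0.0559), where groups were also separate. Col28a1, a chain described mainly around peripheral nerve, was near 1 CPM. RiboZero libraries ran from 0.965 over 1.48 to 1.69 CPM in WT and from 0.148 over 0.582 to 0.893 CPM in KO (log2 fold change -1.36 ± 0.309, adjusted p = 0.0295, edgeR). The RiboZero call was lost without WT mouse 1, 3 or 5 or KO mouse 2, 4 or 5 (adjusted p from 0.0550 to 0.0719). In PolyA, where the groups overlapped (0.554 to 1.93 CPM in WT and 0.418 to 1.11 CPM in KO), Col28a1 had a log2 fold change of -1.17 (adjusted p = 0.0447, edgeR), and 10 of the 12 libraries, all but WT mouse 6 and KO mouse 6, each ended the call when left out (adjusted p from 0.0572 to 0.106).

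Col23a1, a transmembrane collagen, was the one member outside the type IV and fibrillar classes that rose. NoSelect libraries were at 56.9, 56.7, 61.6 and 51.6 CPM in WT and at 73.8, 73.6, 73.4 and 77.9 CPM in KO, without overlap (log2 fold change 0.39 ± 0.0533 SE, adjusted p = 0.00938, edgeR). In RiboZero it ran from 55.9 over a median of 58.7 to 60.4 CPM in WT and from 57.3 in KO mouse 1 over 78.6 to 90.9 CPM in KO (log2 fold change 0.41 ± 0.0849, adjusted p = 0.0191). Both calls were kept without any 1 library. In PolyA the log2 fold change was 0.22, adjusted p = 0.0987, and adjusted p = 0.00927 without KO mouse 1 (edgeR). The bases upstream of Col23a1, Col15a1 and Col28a1 follow, because these genes were called in opposite directions. They are RefSeq sequence of GRCm38.p6 on the strand of the gene, at chr11:51289670-51289919 (plus), chr4:47207762-47208011 (plus) and chr6:8192618-8192867 (minus). Capitals mark the letters AGGTCA, known as the core of ROR and REV-ERB binding elements, and CCGCCC, a GC box on the other strand.
Col23a1: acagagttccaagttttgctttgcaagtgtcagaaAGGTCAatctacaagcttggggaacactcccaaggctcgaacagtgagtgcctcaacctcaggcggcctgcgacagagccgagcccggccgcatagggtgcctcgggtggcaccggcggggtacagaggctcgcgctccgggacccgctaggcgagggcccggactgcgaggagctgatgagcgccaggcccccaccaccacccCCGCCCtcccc
Col15a1: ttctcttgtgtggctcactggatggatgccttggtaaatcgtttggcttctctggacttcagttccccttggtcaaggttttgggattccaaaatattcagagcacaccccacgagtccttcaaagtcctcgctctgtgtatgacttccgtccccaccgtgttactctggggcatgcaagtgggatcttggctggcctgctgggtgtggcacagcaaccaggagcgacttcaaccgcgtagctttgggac
Col28a1: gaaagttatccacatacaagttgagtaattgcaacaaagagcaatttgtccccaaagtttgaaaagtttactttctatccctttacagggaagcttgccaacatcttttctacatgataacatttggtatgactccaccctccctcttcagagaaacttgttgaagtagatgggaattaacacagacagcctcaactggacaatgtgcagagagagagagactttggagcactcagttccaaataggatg

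**Figure D4:**
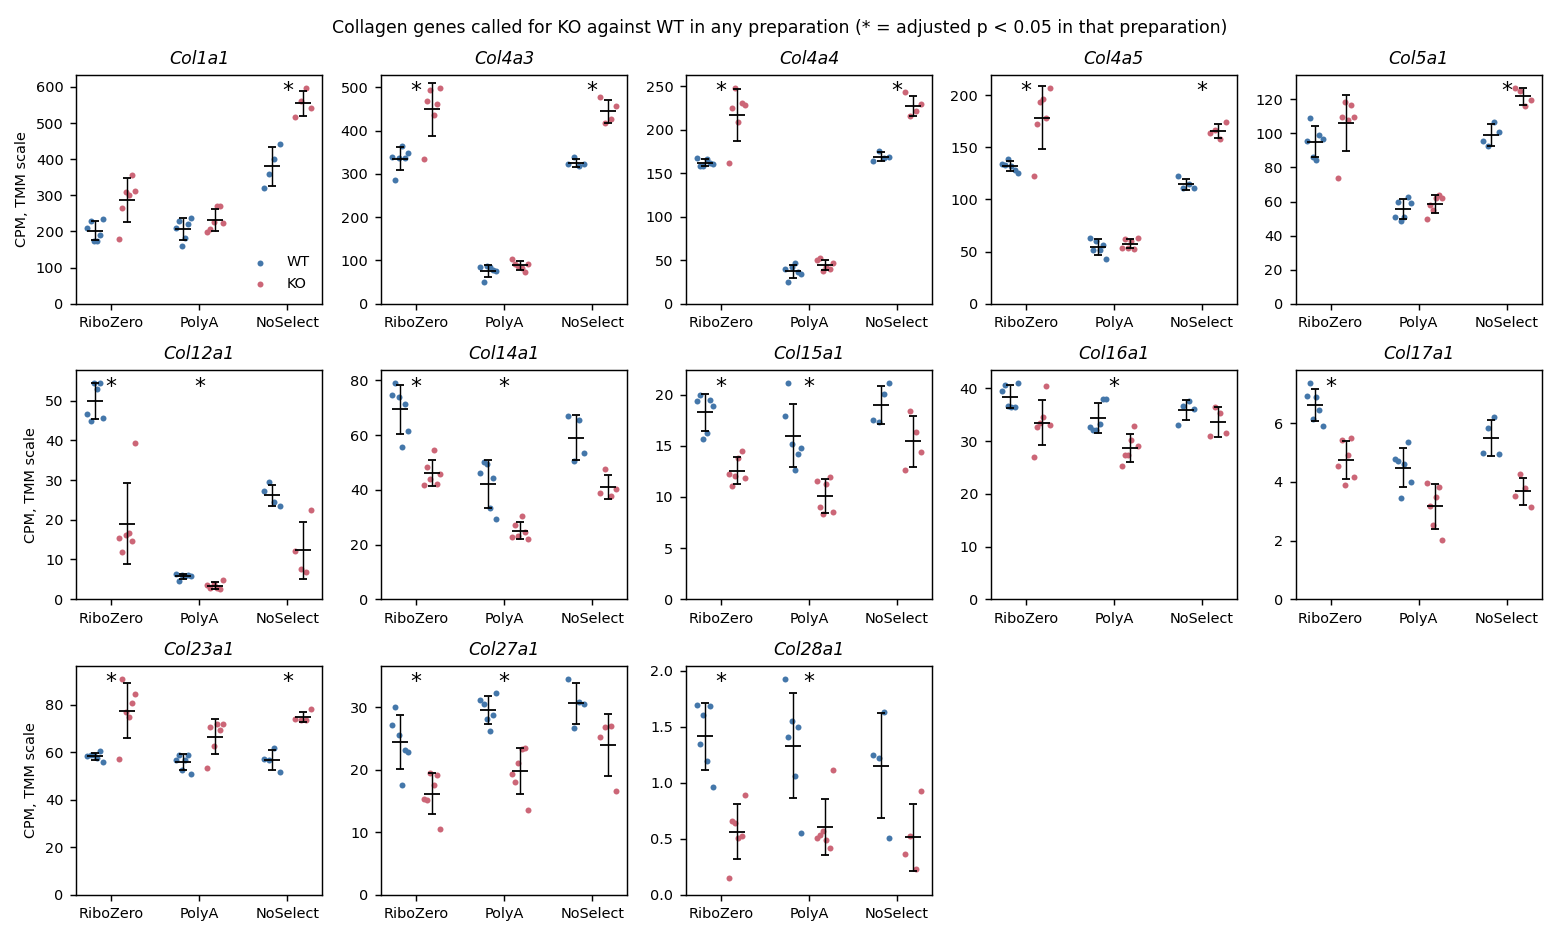
CPM on the TMM scale in every library for the 13 collagen genes called for KO against WT in any preparation, with the mean and SD of each group and a star where the adjusted p is under 0.05. Col4a3, Col4a4 and Col4a5 are higher in all 4 NoSelect KO libraries than in any WT library, and the high KO point of Col12a1 in each preparation is mouse 6.

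Promoter windows of 300 bases, 250 before and 50 after the start, were found in RefSeq for 35 of the 44 members (38 windows). The letters were searched on both strands. The E-box CACGTG was in 0 of the 38 windows and in 7.15% of all 32851 windows, and CACGTT was in 2, those of Col4a4 and Col6a6 (5.26%, against 4.68%). AGGTCA was in 21.1% of the collagen windows and in 16.3% of all, CCAAT in 34.2% against 37.4%, and the GC box GGGCGG in 60.5% against 35.7%. The motifs of the Col4a4 window lie on the side of Col4a3, outside the bases shown above, and its CACGTT and AGGTCA matches share 1 base. A match describes letters only.

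The remaining classes showed no call. The type VI chains of beaded filaments had 0 of 6 called in each preparation. The abundant Col6a1, Col6a2 and Col6a3 had log2 fold changes of -0.02, -0.17 and -0.08 in RiboZero, -0.22, -0.40 and -0.15 in PolyA, and 0.08, -0.03 and 0.02 in NoSelect. Col7a1 of anchoring fibrils and the short-chain Col8a1 and Col8a2 were not called either. The largest log2 fold changes among members that were tested everywhere and never called were those of the low-level genes Col6a4 (0.82, 0.38 and 0.61 in RiboZero, PolyA and NoSelect), Col24a1 (-0.29, -0.61 and -0.27) and Col6a5 (0.30, 0.64 and 0.19). All 3 had medians under 2 CPM, and their adjusted p lay between 0.215 and 0.751 (edgeR). Over all 44 rows the summed level was 5698 ± 939 CPM in RiboZero KO, 3059 ± 376 CPM in PolyA KO and 6205 ± 275 CPM in NoSelect KO. Only the NoSelect sums were separate from those of WT (5943 to 6559.8 CPM against 4574 to 5398 CPM).

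Although PolyA gave calls in one direction and NoSelect in the other, no difference of the KO effect between preparations passed the threshold. The PolyA calls came from mice 1 to 6 and the NoSelect calls from mice 3 to 6. With mice 3 to 6 alone all lower PolyA calls were lost, and Col23a1 was called higher in PolyA. The interaction of genotype and preparation was called for 0 of 38 members in each of the 3 pairs of preparations, against 0% of all rows (edgeR), and DESeq2 called 0 members. These fits had no term for the mouse, although the preparations share mice. At an unadjusted p under 0.05 there was 1 member between PolyA and RiboZero, 8 between PolyA and NoSelect and 1 between RiboZero and NoSelect, against 331 of 18164, 412 of 18372 and 244 of 17502 rows in all. The type IV chain Col4a5 had the lowest of these, with a KO effect lower in PolyA than in NoSelect by 0.50 on the log2 scale (95% interval -0.74 to -0.27, adjusted p = 0.747). For Col1a1 this difference was -0.43 (95% interval -0.77 to -0.08). The PolyA libraries in these fits came from more mice than the NoSelect libraries, so the same mice were not compared. Over 8 alternative settings, among them the mice common to both, the difference ran from -0.43 to -0.23 for Col1a1. For Col4a5 it ran from -0.50 to -0.40. The lowest adjusted p over these edgeR and DESeq2 settings was 0.0708 for Col4a5 and 0.310 for Col1a1, still above the threshold. The 95% intervals do not show that the effects are alike, nor that they differ by preparation alone.

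Markers of the cells that make collagen moved with genotype in part. The fibroblast list (Pdgfra, Tcf21, Pi16, Dpt, Npnt, Mfap5) summed to between 794 and 946 CPM in RiboZero WT and between 721 and 1009 CPM in KO. In PolyA it summed to between 530 and 767 CPM in WT and between 557 and 776 CPM in KO. In NoSelect it summed to between 875 and 989 CPM in WT and between 1008 and 1072 CPM in KO. Pi16 and Dpt, markers of adventitial fibroblasts, fell in RiboZero (log2 fold change -1.07 and -0.46) and PolyA (-1.18 and -0.57), Dpt fell in NoSelect (-0.42), and Npnt, of alveolar fibroblasts, rose in NoSelect (0.39). Pdgfra, Tcf21 and Mfap5 of the same list were not called in any preparation. The alveolar type 1 list (Ager, Rtkn2, Aqp5, Hopx) summed to between 1432 and 1686 CPM in RiboZero WT and between 1645 and 1895 CPM in KO, and to between 1320 and 1489 CPM and between 1470.1 and 1673 CPM in NoSelect. In PolyA its sums ran from 1778 to 2317 CPM in WT and from 2047 to 2478 CPM in KO. The ranges overlapped in each preparation. Of its 4 genes Ager rose in RiboZero, by a log2 fold change of 0.23, and 0 were called elsewhere. Of 4 pericyte genes Kcnj8 fell in each preparation (-0.69, -0.71 and -0.80), and the other genes of that list were not called. The summed level of the pericyte list overlapped between genotypes in each preparation. Its median CPM in WT and KO was 190.0 and 199.2 in RiboZero, 111.9 and 114.9 in PolyA, and 230.9 and 253.5 in NoSelect. In the smooth muscle, mesothelium, Schwann cell, adipocyte and cardiomyocyte lists 0 genes were called. The part of these cell types in the collagen results was not tested.

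Among 65 genes that modify, process, cross-link, degrade or bind collagen, lower calls prevailed. The list was chosen with earlier results of these data known, so its counts are a description only. In RiboZero 2 of the 63 tested rose and 11 fell, in PolyA 1 of 64 rose and 9 fell, and in NoSelect 1 of 63 rose and 6 fell. All rows were called higher in 1.84%, 1.62% and 1.19% and lower in 1.63%, 2.41% and 0.981% of cases. Of 6 partners of fibrils, 3 fell in RiboZero and 4 in each of PolyA and NoSelect. Fmod (fibromodulin, a fibril-binding proteoglycan) ran from 7.09 to 10.4 CPM in RiboZero WT and from 3.49 to 5.69 CPM in KO libraries, with log2 fold changes of -1.03, -0.75 and -0.86 in RiboZero, PolyA and NoSelect, all called. Its NoSelect call was lost without WT mouse 3, 4 or 6 or KO mouse 4, 5 or 6 (adjusted p from 0.0561 to 0.0900).

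Fn1 (fibronectin) ran from 390.4 to 513 CPM in RiboZero WT and from 279 to 352 CPM in KO libraries, without overlap. Its log2 fold changes were -0.61, -0.71 and -0.63. The PolyA call (adjusted p = 0.0492) was lost without any 1 of the libraries other than WT mouse 2 (adjusted p from 0.0541 to 0.120). Bgn (biglycan) fell in each preparation by 0.40, 0.53 and 0.43 on the log2 scale. Dcn (decorin) fell in PolyA by 0.78 and Lum (lumican) in NoSelect by 1.14, the latter not without KO mouse 4 (adjusted p = 0.0503). In the other preparations the adjusted p of Dcn was 0.0565 and 0.0950 and that of Lum 0.102 and 0.113, or 0.0126 and 0.00499 without KO mouse 1 (edgeR).

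Timp3, a matrix-bound inhibitor of metalloproteinases, ran from 681 to 839 CPM in RiboZero WT and from 397 to 637 CPM in KO libraries. It was called in each preparation, with log2 fold changes of -0.64, -0.75 and -0.66, in NoSelect not without WT mouse 3, 4, 5 or 6 or KO mouse 4 or 5 (adjusted p from 0.0580 to 0.0900). Pcolce2, an enhancer of propeptide removal, fell in each preparation by 0.46, 0.51 and 0.45. The prolyl hydroxylase subunit P4ha3 fell in RiboZero (-0.78) and PolyA (-0.98), the cross-linking enzyme Loxl4 in RiboZero (-0.47) and PolyA (-0.68), and Timp1 (-0.63) and the propeptide protease Adamts3 (-0.50) in RiboZero. Of these, P4ha3 in PolyA kept its call without any 1 library. The RiboZero calls of P4ha3, Loxl4, Timp1 and Adamts3 were lost in 10, 11, 10 and 6 of the 12 fits without 1 library, and the PolyA call of Loxl4 in 5.

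Of 6 enzymes that break collagen down, the gelatinase Mmp9 rose in RiboZero (log2 fold change 0.86, lost without WT mouse 2, 3, 4, 5 or 6 or KO mouse 4 or 5). The membrane-bound collagenase Mmp14 rose in RiboZero (0.33) and NoSelect (0.48), and the cysteine protease Ctsk rose in PolyA (0.37). The collagen receptors Ddr2 and Itga2 fell in RiboZero by 0.21 and 0.30, and P3h3, a prolyl hydroxylation gene, fell in PolyA by 0.35. Chaperone and export genes, 4 in number, and 7 genes of TGF-beta signalling had 0 called in each preparation (edgeR).

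The preparation itself moved several collagen transcripts further than genotype did. A call between preparations needed a difference of 1 or more on the log2 scale as well. The main fits had genotype as a covariate but no term for the mouse, although the preparations share mice. NoSelect libraries came from mice 3 to 6 only, so comparisons with them did not set the same mice against each other. In PolyA against RiboZero 8 of 38 tested members were called, all lower in PolyA, against 23.6% of all rows called and 16.6% called lower. In PolyA against NoSelect 10 were called, all lower, against 25.1% and 15.1%. In RiboZero against NoSelect 0 were called, against 4.3% of all rows (1.74% higher in RiboZero and 2.56% lower), and at an unadjusted p under 0.05 there were 15 of 38 members and 8969 of 17502 rows. By the adjusted p alone 6 members were lower in RiboZero than in NoSelect and 6 higher, against 21.5% and 24.3% of all rows (edgeR). The members' counts of 8 and 10 of 38 are near the shares of all rows. Without KO mouse 6 the counts were 8, 10 and 0.

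Col12a1, with the longest transcript of the family at 11511 bases, differed most between PolyA and RiboZero. It ran from 2.49 over a median of 4.70 to 6.37 CPM in PolyA libraries, from 11.97 over 42.2 to 54.4 CPM in RiboZero and from 6.91 over 22.9 to 29.4 CPM in NoSelect. The log2 fold change was -2.80 ± 0.169 (SE) for PolyA against RiboZero and -1.98 ± 0.175 against NoSelect. Col4a3 ran from 50.2 over 85.3 to 103 CPM in PolyA, from 285 over 356 to 499 CPM in RiboZero and from 318 over 378 to 477 CPM in NoSelect. No PolyA library reached the range of the others, with log2 fold changes of -2.23 ± 0.0844 and -2.17 ± 0.0867. Its partner Col4a4 followed with -2.19 and -2.21.

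Against RiboZero, Col6a6 (-1.84), Col4a5 (-1.45), Col6a3 (-1.32), Col24a1 (-1.17) and Col4a1 (-1.08) were the other calls. The same genes were called against NoSelect (-1.51, -1.26, -1.29, -1.19 and -1.02), together with Col1a1 (-1.03) and Col6a5 (-1.01). Col1a1 was the fibrillar chain that set NoSelect apart: its median was 480.2 CPM there, 231 CPM in RiboZero and 222 CPM in PolyA, and it was lower in RiboZero than in NoSelect by 0.94 on the log2 scale (adjusted p = 1.08e-07, edgeR). Col1a2 differed by 0.23 in the same direction (adjusted p = 0.0114). With mice 3 to 6 alone, Col4a1 and Col6a5 fell short of the size threshold against NoSelect (-0.92 and -0.88). They also fell short of it with the mouse as a replicate block (-0.90 and -0.89) and with no filter on low counts (-0.96 and -0.95). Col1a1 fell short of it against NoSelect with no filter on low counts only (-0.97).

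Differences between preparations went with transcript length in collagens as in other genes. Across the 38 members, a description over genes that share libraries, Spearman's rho between length and log2 fold change was -0.58 when PolyA was set against RiboZero, -0.61 against NoSelect, and 0.03 between RiboZero and NoSelect. Over all protein-coding rows tested it was -0.64, -0.70 and -0.25. With GC content the members' rho was 0.63, 0.52 and -0.51, and over all protein-coding rows tested 0.45, 0.30 and -0.35. Collagen transcripts were long, with a median of 5989 bases against 2720 for protein-coding rows of the table. The 5 members between 9000 and 13000 bases had a median log2 fold change of -1.32 for PolyA against RiboZero, and 424 protein-coding rows of that length had -1.48. For 19 members between 5000 and 7000 bases the median was -0.37, and -0.58 over 1840 protein-coding rows.

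Col7a1 departed from this pattern. Its transcript has 9250 bases, and it ran from 13.7 over 17.7 to 23.9 CPM in PolyA and from 11.7 over 15.7 to 17.2 CPM in RiboZero libraries, a log2 fold change of 0.21 ± 0.0696. Its GC content, 61.6%, was above the members' median of 55.4%. By the adjusted p alone, 27 members were lower and 7 higher in PolyA than in RiboZero (38.6% and 42.5% of all rows), the 7 being Col7a1, Col8a2, Col9a3, Col11a2, Col20a1, Col26a1 and Col27a1. Against NoSelect 23 were lower and 4 higher (36.3% and 42.8% of all rows), the 4 being Col8a2, Col9a3, Col11a2 and Col26a1. The shortest of the tested members, Col26a1 with 2781 bases, had the largest positive value against RiboZero, 0.89 ± 0.165.

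**Figure D5:**
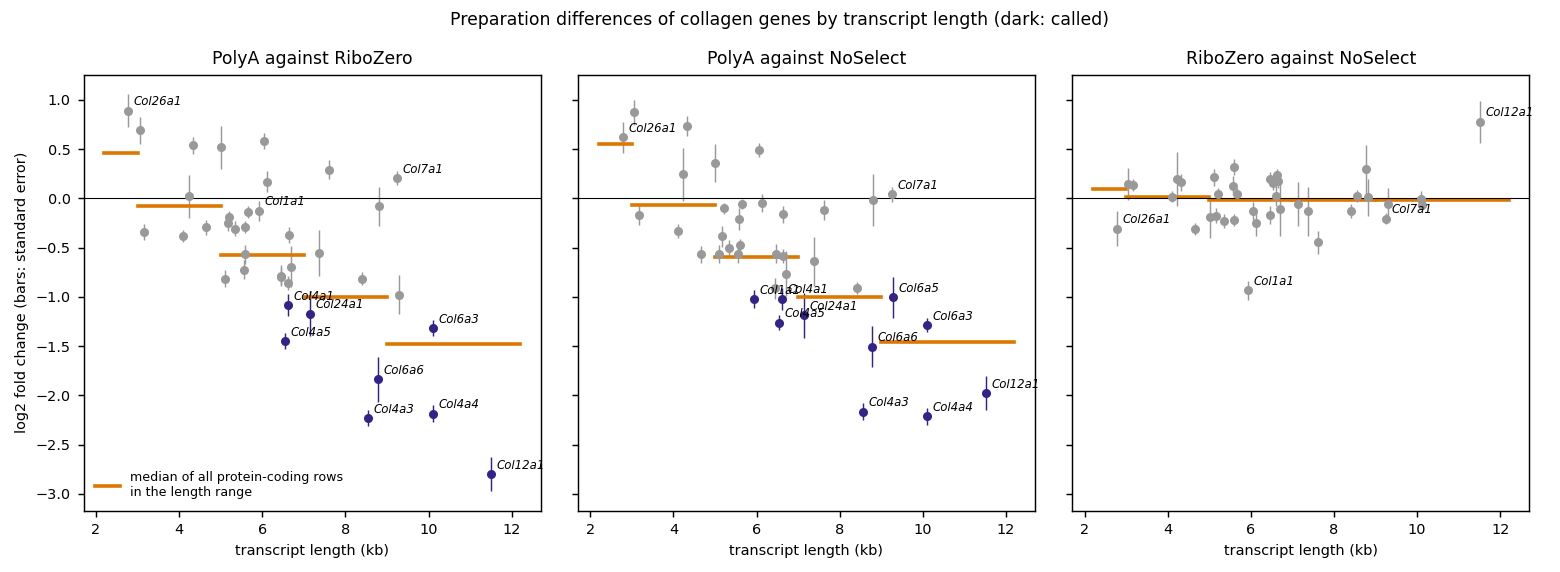
log2 fold change between preparations for each of the 38 tested collagen genes against transcript length in kb, with bars of 1 standard error, dark points for calls and orange lines for the median of all protein-coding rows in the same length range. Long transcripts such as Col12a1, Col4a3 and Col4a4 lie lowest in both comparisons with PolyA, Col7a1 does not, and RiboZero against NoSelect shows no call.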

How the data were processed

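The authors deposited a table of salmon estimated counts per row (37751 gene identifiers and 3936 transcript rows), of which 12.81% were not whole; these were rounded before testing. Per the submitters' processing notes, Salmon 1.4.0, UMI-tools 1.1.1 and GRCm38 were used; their order and the annotation are not given in the sources used here. RNA input was 200 ng for RiboZero and PolyA and 15 ng for NoSelect, with 11 cycles of PCR and UMI adapters, per the labels' protocols. Collagen members were all rows matching the symbol rule, and members, gene lists and tests were chosen with earlier results of these data known. Values per library are CPM on a TMM scale over 32 libraries, with effective sizes from 14054286 to 63275689.

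Genotypes were compared separately in the 3 preparations, and preparations over both genotypes with genotype as a covariate, by edgeR 4.0.16 in R 4.3.3 (TMM, filterByExpr, quasi-likelihood test, Benjamini-Hochberg adjustment over all tested rows, threshold 0.05; between preparations also an absolute log2 fold change of 1). Standard errors are the log2 fold change over the root of F. DESeq2 1.42.0 was an alternative. The same mouse appears in up to 3 preparations, and its libraries deviated together (correlation 0.490 to 0.793 over 28 pairs, 12983 rows). Transcript lengths are those of the longest protein-coding transcript in GENCODE M21, and promoter windows come from RefSeq GRCm38.p6. Named were called members, the 3 largest uncalled members tested everywhere, the 5 highest and lowest calls per pair of preparations, the 6 most abundant genes, the defining chains and at most 10 pathway genes by size of change; Mmp14, Bgn, Pcolce2, Ctsk, Ddr2, Itga2 and P3h3 were named after their values were seen, to complete the 17 called, and were not refitted without single libraries. The edgeR fits for genotype, preparation and their interaction were run on simulated counts with planted changes of at least 1 on the log2 scale. Each simulated library was drawn independently. Effects shared by libraries of a mouse and smaller changes, like most genotype differences here, were therefore not covered.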

Additional observations from a re-analysis of the deposited data

Results flagged for a closer look

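In 78 groups of 4 or 6 libraries, for the 13 called members, the highest or lowest library was compared with its nearest neighbour relative to the group's range, and 8 groups exceeded Dixon's critical value at the 95% level. Chance gives about 1 in 20 groups. KO mouse 6 stood apart in 4 of them: it was highest for Col12a1 in RiboZero (39.4 CPM, others 11.97 to 16.7), for Col23a1 in NoSelect (77.9 CPM, others 73.4 to 73.8) and for Col28a1 in PolyA (1.11 CPM, others 0.418 to 0.573), and lowest for Col27a1 in NoSelect (16.6 CPM, others 25.3 to 27.0). WT mouse 2 was lowest for Col4a3 in RiboZero (285 CPM, others 335 to 364), for Col4a3 in PolyA (50.2 CPM, others 75.0 to 86.3) and for Col12a1 in PolyA (4.52 CPM, others 5.76 to 6.37). KO mouse 1 was lowest for Col5a1 in RiboZero (74.1 CPM, others 108 to 118).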

How the results depend on the processing

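Counts of collagen calls for KO against WT moved by over 1.5 times in some settings. With mice 3 to 6 alone RiboZero gave 5 (5 higher, 0 lower) and PolyA 1 (Col23a1, higher), against 10 and 6. Leaving out 1 library gave 6 to 13 calls in RiboZero (6 without WT mouse 5 or KO mouse 2, 13 without KO mouse 1), 4 to 5 in PolyA and 4 to 8 in NoSelect. DESeq2 gave 12 in NoSelect (10 higher, 2 lower), 11 in RiboZero and 9 in PolyA, and over all rows 985, 1355 and 874 calls in RiboZero, PolyA and NoSelect, against 579, 694 and 372 by edgeR. With mouse number as a replicate block, RiboZero gave 4 calls (0 higher, 4 lower), NoSelect 3 (all higher) and PolyA 6. WT and KO mice with equal numbers share only a number: their deviations correlated between -0.0927 and 0.361 in RiboZero and PolyA and between -0.160 and 0.0425 in NoSelect, and the own number was the closest for 3 of 12, 3 of 12 and 0 of 8 libraries. Counts with other scalings and filters stayed within 1.5 times, as did those between preparations and the ratios of chains, and no result reversed. The cause of these shifts was not tested.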

Other observations

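Col22a1, a FACIT of tissue junctions that was tested in PolyA and NoSelect only, had a log2 fold change of -1.18 in NoSelect (adjusted p = 0.134, edgeR) without overlap between WT and KO libraries, and -0.77 in PolyA. Outside the collagens, the surfactant protein gene Sftpa1 fell in each preparation, by 0.49, 0.66 and 0.57 on the log2 scale (adjusted p = 0.00776, 0.00457 and 0.0178, edgeR). The summed level of the mesothelium list (Msln, Wt1, Upk3b, Lrrn4) lay between 52.3 and 109.6 CPM in NoSelect WT and between 30.2 and 51.1 CPM in KO libraries, with 0 of its genes called. The groups overlapped in RiboZero (49.3 to 118 against 31.0 to 73.4 CPM) and in PolyA (75.4 to 234.5 against 44.2 to 116 CPM).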
